A study of Mus musculus with 2 samples.

Results

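miR-132-3p, a 22-nucleotide microRNA known in neurons among other cells, was compared between R6/2 and wild-type mice in the striatum. MicroRNAs are short RNAs that guide the silencing machinery to messenger RNAs carrying a match to their seed, the stretch from base 2 to base 8. It corresponds to 1 row of the deposited table, the row with the identifier MIMAT0000144. That row was 1 of 3200 rows in the table and 1 of 1369 with a value in both arrays. The R6/2 group was 1 array of striatal RNA from male mice aged 10 weeks, labelled R6/2. The wild-type group was 1 array of striatal RNA from male mice of the same age, labelled Wt. In R6/2 mice a transgene encodes exon 1 of human huntingtin with an expanded CAG repeat, and the mice serve as a model of Huntington's disease. The number of animals behind each array, and whether they were littermates, is not in the labels. With 1 array per genotype no value has a replicate error and no difference was tested.

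The name miR-132-3p rests on the identifier alone. The table holds no miRNA names, and its identifiers increase by exactly 1 at all 3199 steps, so past the beginning of the table they may not belong to the miRNA measured in their row. The row of miR-132-3p is the 24th. It lies among the first 45, the stretch in which the identifiers were taken as reliable. No table used here pairs the other identifiers with names, so the other rows are given without miRNA names. For the same reason neither the name of the row nor the tissue could be checked against marker miRNAs of neurons, glia, blood or vessels. The row was chosen here with its ratio already known.

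miR-132 is made together with miR-212 from 1 transcript, whose production in neurons rises with synaptic activity and with the growth factor BDNF through the transcription factor CREB. It is known for promoting the growth of dendrites and the maturation of dendritic spines.

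In the RefSeq annotation of GRCm38.p6 the Mir132 hairpin lies on the plus strand at chr11:75173682-75173747, and no other annotated gene overlaps it. The Mir212 hairpin lies upstream on the same strand at chr11:75173388-75173478, with 203 bases between them. Both mature 3p sequences are shown because they carry the same seed, printed in capitals, and could therefore address the same messenger RNAs.
mmu-miR-132-3p: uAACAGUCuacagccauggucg
mmu-miR-212-3p: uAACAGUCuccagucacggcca

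Among 1679 mature mouse miRNA names in the RefSeq table, these 2 had this seed at bases 2 to 8. The complementary letters in a target would be GACUGUU. Counted from 1 at the 5′ end, the first 9 bases of both sequences were identical, and 17 of the 22 positions matched. The differences were A10C, C14U, U17C, U20C and G22A, with the base of miR-132-3p first. Of all the other mature names, miR-212-3p was the closest to miR-132-3p, at 5 single-base edits, and the next, miR-7b-3p, was 7 edits away. Signal from miR-212-3p on the miR-132-3p probe was not tested, and the level of miR-212-3p is not analysed here because its row could not be identified with certainty. The hairpin is printed with the mature miR-132-3p in capitals, at hairpin bases 42 to 63, to show that the mature strand measured here comes from the 3′ arm.
Mir132 hairpin: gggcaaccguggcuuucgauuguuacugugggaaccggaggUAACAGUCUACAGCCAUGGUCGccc

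miR-132-3p was lower in R6/2 than in wild-type striatum, and its ratio was the lowest of all 1369 rows with a value in both arrays. Its deposited intensity was 406.7 in R6/2, against 1238.9 in wild-type striatum. The R6/2 intensity was thus 32.8% of the wild-type one, a log2 ratio of -1.61. In bulk tissue, fewer cells that make this miRNA and less of it per cell cannot be told apart.

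The row was well inside the measured range of both arrays. Filled cells ran from 3.6 to 131208 in the R6/2 array and from 4.7 to 112973 in the wild-type array, and both arrays had a median of 25. The miR-132-3p intensity was 16.3 times the array median in R6/2, against 49.6 times in wild-type striatum. Rows blank in the wild-type array and filled in the R6/2 array had intensities of at most 18.5, far under either value of miR-132-3p.

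The place of the row within each array also differed. It was the 138th brightest row of 1650 in R6/2, against the 70th of 1376 in wild-type striatum. It outshone 91.6% of the filled rows in R6/2, against 94.9% in wild-type striatum. Over the 1369 rows filled in both arrays it likewise stood 68 places further down in R6/2. It made up 0.0504% of the summed intensity in R6/2, against 0.176% in wild-type striatum. These ranks place the row within an array. They do not order miRNAs by amount, since probes differ in how brightly they bind their target.

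**Figure D1:**
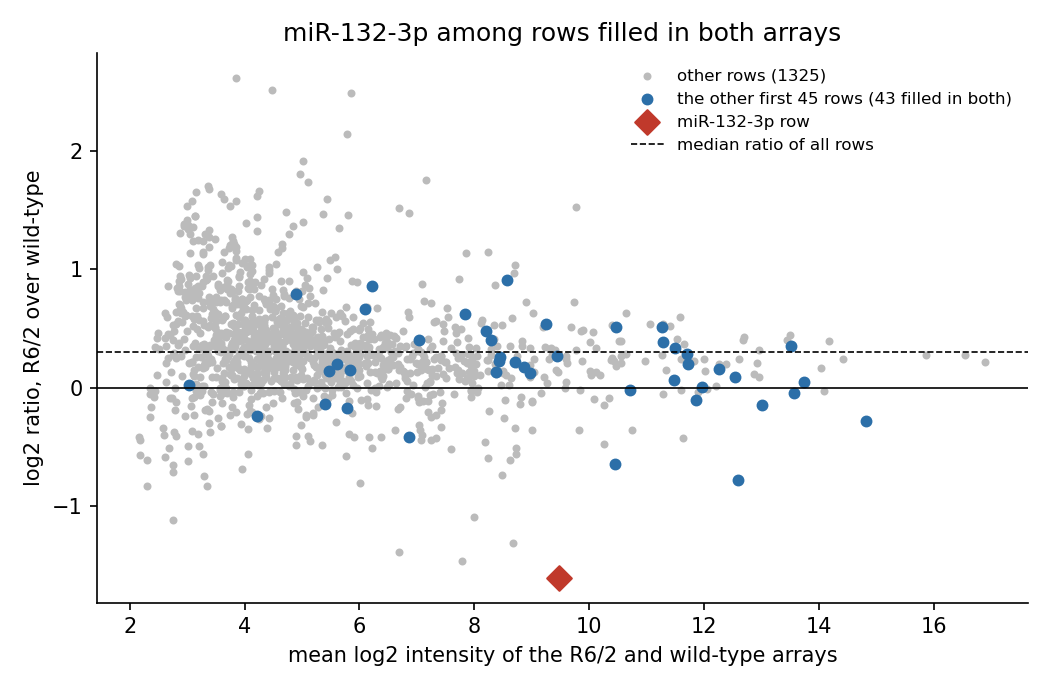
Log2 ratio of R6/2 over wild-type against the mean log2 intensity of the 2 arrays, 1 point per row filled in both arrays (1369 rows). The red diamond is miR-132-3p at a ratio of -1.61, the lowest point of the plot, blue points are the other first 45 rows, and the dashed line is the median ratio of 0.30.

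On the deposited scale most rows leaned the other way, the shared rows having a median log2 ratio of 0.30, with 1154 above 0 and 210 below. On that scale both arrays have a median of 25, but over different numbers of filled rows, 1650 in R6/2 and 1376 in wild-type. Whether the lean comes from this scaling or from the RNA was not tested. Centring on the median ratio of the shared rows removes the lean by construction. Relative to that median ratio the log2 ratio of miR-132-3p was -1.91, a 3.76-fold lower value in R6/2. The next lowest rows had log2 ratios of -1.47 and -1.39 as deposited. At least 2-fold lower in R6/2 were 6 of the 1369 rows, or 0.438%, and at least 3-fold lower was 1 row, or 0.073%, which was miR-132-3p itself. Since the row was chosen with its ratio known, nothing is read from its passing these limits.

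Ratios scatter more among dim rows, so miR-132-3p was set beside the 100 rows nearest to it in mean log2 intensity. Those 100 rows had intensities with a median of 611.3 in R6/2, against 535.0 in wild-type striatum. Their log2 ratios had a median of 0.21, with quartiles of 0.05 and 0.35, and ran from -1.31 to 1.53. Of these 100 rows, 4 were at least 1.5-fold lower in R6/2 and 1 was at least 2-fold lower. That none was as low as miR-132-3p follows from its place as the lowest of all shared rows. The ratio of miR-132-3p was 1.81 below their median on the log2 scale.

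**Figure D2:**
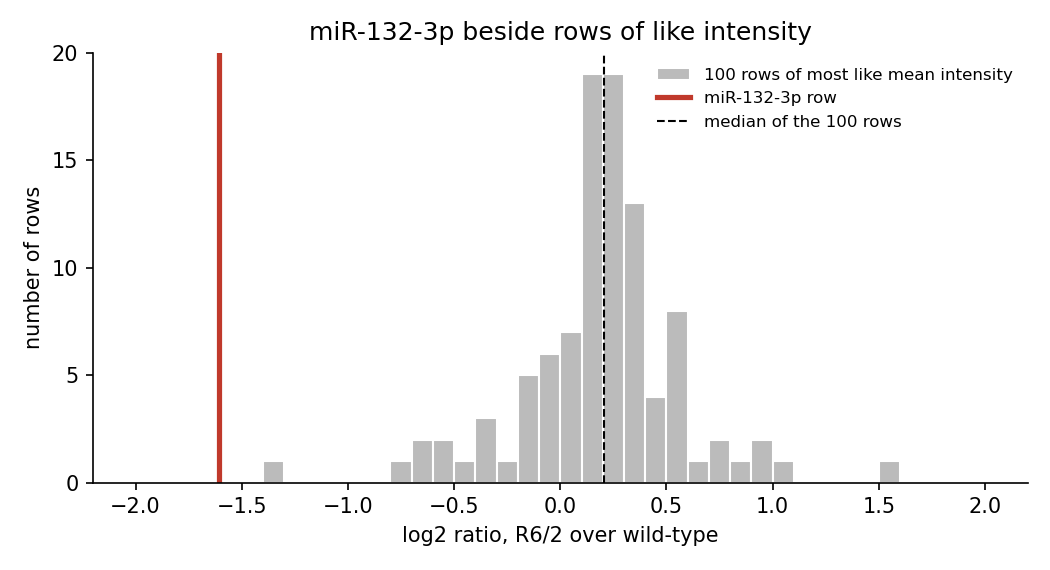
Number of rows by log2 ratio of R6/2 over wild-type, for the 100 rows nearest to miR-132-3p in mean log2 intensity. The red line marks miR-132-3p at -1.61 and the dashed line the median of the 100 rows at 0.21; the lowest of them lies at -1.31.

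Rows can also be matched on 1 array at a time, which describes the same low ratio and adds no separate evidence. The 100 rows nearest in R6/2 intensity, between 240.3 and 682.5 in R6/2 striatum, had wild-type intensities from 77.5 to 643.6. The wild-type value of miR-132-3p, 1238.9, lay above that whole range. The 100 rows nearest in wild-type intensity, between 397.8 and 3773.3 in wild-type striatum, had R6/2 intensities from 259.5 to 4463.4, with a median of 1070.1. Of those 100 rows, 7 had an R6/2 value as low as the 406.7 of miR-132-3p. The wild-type values of these 7 ran from 402.5 to 643.6, all below the 1238.9 of miR-132-3p.

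Among the first 45 rows of the table, 44 had a value in both arrays. The median of the filled rows was 520.6 in R6/2, against 494.1 in wild-type striatum, so as a group they were brighter than the array median. miR-132-3p was the 26th brightest of 45 in R6/2, against the 19th of 44 in wild-type striatum. The median log2 ratio of the 44 rows was 0.16, against 0.30 over all 1369 rows, and 32 were above 0 and 12 below. At least 1.5-fold lower in R6/2 were 3 of the 44, or 6.82%, beside 1.53% of all shared rows. miR-132-3p, chosen with its ratio known, is 1 of these 3, and 2 of the other 43 rows passed this limit. At least 1.5-fold higher were 5 of the 44, or 11.4%, beside 21.5% of all shared rows. Relative to the median ratio of the shared rows the balance turned. Then 4 of the 44, or 9.09%, were at least 1.5-fold lower, beside 5.41% of all shared rows. At least 1.5-fold higher was 1, or 2.27%, beside 9.42%. Leaving out miR-132-3p, 3 of the other 43 rows were lower and 1 was higher. At least 2-fold lower was miR-132-3p alone, 2.27% of the 44 beside 0.438% of all shared rows, a count fixed by the choice of the row. At least 2-fold higher were 0 of the 44, beside 6.72% of all shared rows. Because the first 45 are brighter rows, these shares do not compare like with like. The quartiles of the log2 ratios were 0.12 and 0.53 over all shared rows, against 0.04 and 0.34 in their brightest 25%.

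In the first 45 rows, no other ratio came near that of miR-132-3p. The closest was MIMAT0000140, with 4682.7 in R6/2, against 8038.4 in wild-type striatum, a log2 ratio of -0.78. MIMAT0000163 followed, with 1119.1 in R6/2, against 1752.8 in wild-type striatum, a log2 ratio of -0.65. The 5 closest ratios lay between -0.78 and -0.24, so the gap from miR-132-3p to the closest was 0.83 on the log2 scale. This gap holds only within the first 45 rows, since the next lowest log2 ratio over all shared rows was -1.47. With 1 array per genotype, likeness is only closeness of this 1 ratio. At the other end, MIMAT0000141 had 520.6 in R6/2, against 277.4 in wild-type striatum, a log2 ratio of 0.91. MIMAT0000162 had 100.6 in R6/2, against 55.6 in wild-type striatum, a log2 ratio of 0.86.

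The rows of the first 45 next to miR-132-3p in mean intensity had smaller differences. Past 1.5-fold in the same direction was 1 of them, MIMAT0000163, and another lay just below 0, at a log2 ratio of -0.02. The 3 just brighter had 1119.1 to 1686.4 in R6/2, against 1183.7 to 1752.8 in wild-type striatum, with log2 ratios from -0.65 to 0.51. The 3 just dimmer had 524.8 to 763.4 in R6/2, against 482.1 to 633.2 in wild-type striatum, with log2 ratios from 0.12 to 0.54. The R6/2 value of miR-132-3p thus lay below all 6 of these rows, while its wild-type value lay within the range of the brighter 3.

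**Figure D3:**
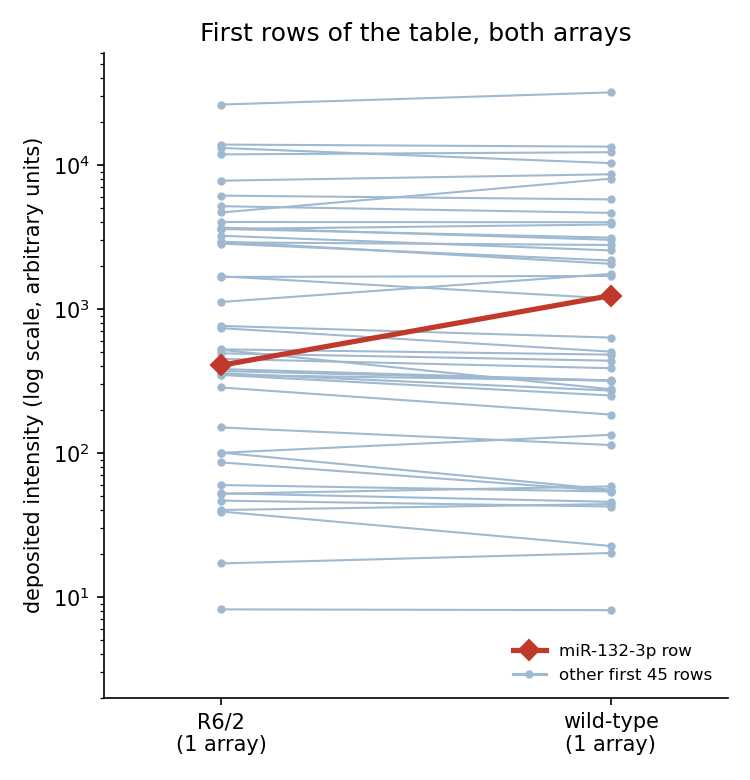
Deposited intensity on a log scale in the R6/2 array (left) and the wild-type array (right), 1 line per row, for the 44 of the first 45 rows filled in both arrays. The red line is miR-132-3p, at 406.7 in R6/2 and 1238.9 in wild-type, the steepest line of the plot.

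How the authors scaled the arrays is not stated in the sources used here, so the ratio was computed on other scales too. Over 9 alternatives the log2 ratio of miR-132-3p lay between -1.91 and -1.58, that is 3.76-fold to 2.99-fold lower in R6/2, and it was below 0 in all 9. It was the lowest of the shared rows as deposited, after quantile normalization, after removal of the intensity trend and with a pseudocount.

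**Figure D4:**
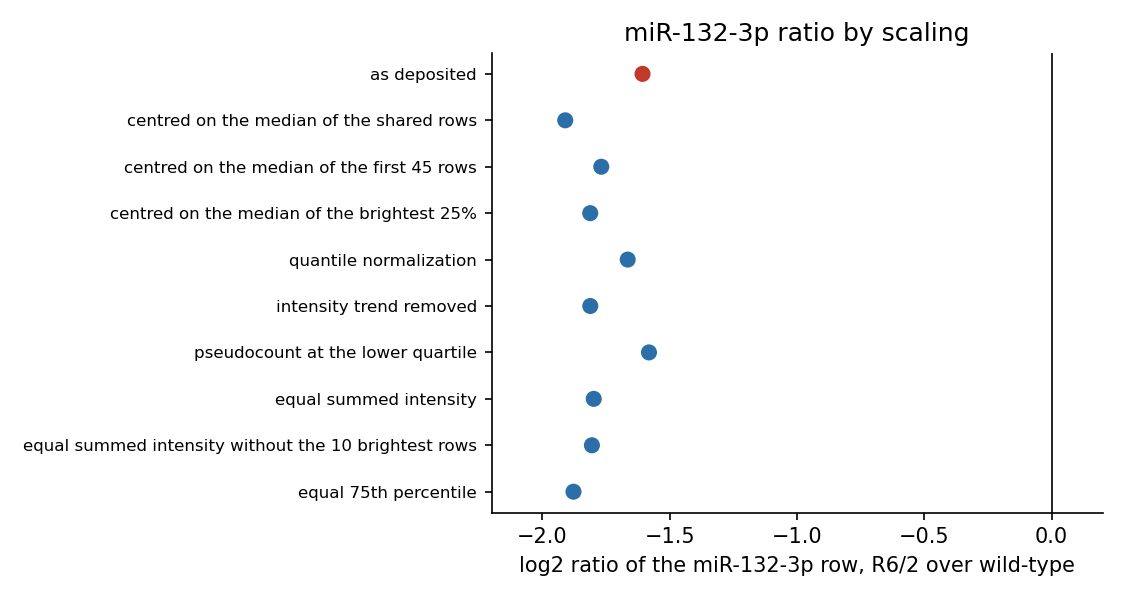
Log2 ratio of R6/2 over wild-type for the miR-132-3p row, as deposited (red) and under 9 other scalings (blue). All points lie between -1.91 and -1.58, left of 0.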

How the data were processed

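Small RNA from striatum was measured on 3D-Gene mouse miRNA chips, per the labels' protocols with TRIzol extraction and the single dye Hy5. The deposited values are intensities on a linear scale, normalized by the authors, with a median of 25 over the filled cells of each array; the background correction, scaling and rule for blank cells are not stated in the sources used here. The deposited table was used as given, and rows filled in both arrays were given a log2 ratio, R6/2 over wild-type, with no pseudocount. Groups were taken from the source names. The number of arrays, 1 per group, limits the precision, and no test was run.

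The row, the lists and the comparisons were chosen with earlier results of these data known. The rule for rows to name took miR-132-3p, the 5 lowest and 5 highest of the other first 45 rows, the 3 nearest rows in intensity on each side, and members of marker miRNA lists. Without a table of names the marker lists were not matched and gave no result, and only 2 identifiers in each direction are printed. Alternatives were centring on the median of the shared rows, of the first 45 rows or of the brightest 25%, quantile normalization, lowess removal of the intensity trend (span 0.4), a pseudocount at the lower quartile (11.3 for R6/2, 12.3 for wild-type), and, chosen after seeing the data, equal summed intensity (with and without the 10 brightest rows) and an equal 75th percentile. A ratio was taken as moved at a change of 0.25 on the log2 scale. The computation was tested on simulated ratios with the same spread at all intensities, unlike the real ratios, which checks the code only. Python 3.11.15, numpy 2.4.6, pandas 2.3.3, statsmodels 0.14.6 and matplotlib 3.10.9 were used. Sequences are RefSeq's, on GRCm38.p6.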

Additional observations from a re-analysis of the deposited data

How the results depend on the processing

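No paired analysis was possible because each genotype has 1 array, and no replicate could be left out. The log2 ratio of miR-132-3p, -1.61 as deposited, was -1.91 after centring on the median of the shared rows and -1.88 with equal 75th percentiles, and moved by less than 0.25 under the other 7 alternatives. Its distance from the median of rows of like intensity lay between -1.85 and -1.81 over 4 other choices of those rows. Its share of dimmer rows, 91.6% in R6/2 and 94.9% in wild-type over all filled rows, was 42.2% in R6/2 and 56.8% in wild-type over the first 45, which are brighter rows. The count of the first 45 rows past 1.5-fold lower, miR-132-3p included, was 3 as deposited, or 6.82%, beside 1.53% of all shared rows. After quantile normalization the count was 5, and after trend removal it was 5. The share of all shared rows was not computed on those scales, so nothing is read from the rise. At 2-fold as deposited the count was 1, beside 0.438% of all shared rows. The direction of rows near 0 depended on the scale. Of the other 43 rows, 11 were below 0 as deposited, beside 210 of all 1369 shared rows, or 15.3%. Once ratios had been centred on the shared rows, 29 of the 43 were below 0. That centring moves every row, and by construction puts about as many shared rows below 0 as above.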

Other observations

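The rows directly before and after miR-132-3p in the table had ratios slightly below 0 as deposited. The row before had 3595.8 in R6/2, against 3864.9 in wild-type striatum, a log2 ratio of -0.10. The row after had 52.1 in R6/2, against 58.6 in wild-type striatum, a log2 ratio of -0.17. Relative to the median ratio of the shared rows these ratios were -0.41 and -0.47.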
